A study of Mus musculus with 8 samples.

Results

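The Schlafen (Slfn) genes of the mouse were described in CD8+ T cells and natural killer (NK) cells of the spleen, as 7 genes chosen by name, Slfn1, Slfn2, Slfn3, Slfn4, Slfn5, Slfn8 and Slfn9, of 54232 genes in the deposited count table. Both groups came from Tyk2-/- mice aged 8 to 12 weeks on a C57BL/6N background. These mice carry the germline allele Tyk2tm1Biat, either alone or with a widely expressed CMV-cre transgene (which of them gave each library is not told), and lack tyrosine kinase 2, a Janus kinase of the type I IFN receptor. The cells were not treated (homeostatic condition). Each of the 3 libraries of a group was made from FACS-sorted cells of 3 pooled spleens, from 500 pg of RNA as PCR-amplified cDNA, and was read as single 50-base reads. The comparison asks which Schlafen transcripts separate the cell types when both lack Tyk2. It says nothing of the effect of the deletion, since the wild type libraries were not analysed here. Libraries are numbered 1 to 3 within a cell type, and these numbers do not pair CD8+ T cells with NK cells.

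Schlafen proteins are a family of mammals whose genes lie side by side and have multiplied in rodents. Mouse members are sorted by size into a short group (Slfn1 and Slfn2), an intermediate group (Slfn3 and Slfn4) and a long group (Slfn5, Slfn8, Slfn9 and Slfn14), of which the long members carry an additional helicase-like part. They share a core that in several members binds or cuts RNA, including transfer RNA. Many are IFN-stimulated genes (ISG), and in T cells the family is best known for growth control, since loss of Slfn2 breaks the quiescence of resting T cells.

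In the annotation of the GRCm38 build, 9 genes of the family lie within 335.4 kb of chromosome 11. On the forward strand are Slfn5 (chr11:82951349-82964840), Slfn2 (chr11:83065112-83070678), Slfn1 (chr11:83116849-83122670), Slfn4 (chr11:83175186-83190216) and Slfn3 (chr11:83191330-83215154). On the reverse strand are Slfn9 (chr11:82978390-82991830), Slfn8 (chr11:83002158-83020810), the transcribed pseudogene Slfn10-ps (chr11:83028130-83040042) and Slfn14 (chr11:83275110-83286726). The longest coding sequence had 337 codons in Slfn1 and 378 in Slfn2. It had 517 codons in Slfn3 and 602 in Slfn4. The long members had 884 codons in Slfn5, 910 in Slfn8 and 910 in Slfn9. Slfn8 and Slfn9 are therefore neighbours of the same strand and of the same coding length.

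The promoters of 5 members are shown, because in these genes each CD8+ T cell library lay on the same side of all NK cell libraries (Slfn1, Slfn2, Slfn5 and Slfn9) or the libraries of a single cell type differed widely (Slfn8). The promoter of Slfn3, whose few counts in CD8+ T cells also differed widely between libraries, is not shown. Each sequence is the 250 bases before the transcription start site, 5′ to 3′ on the strand of the gene, from RefSeq on GRCm38.p6. Capitals mark a match to the core of the IFN-stimulated response element (ISRE, GAAA and again GAAA with 2 bases of any kind between) or, in Slfn2, to an ETS-IRF composite element (GGAA, 2 bases of any kind, then GAAA), searched on both strands of windows reaching 50 bases past the start site. The stretches are chr11:82991831-82992080 (reverse strand) for Slfn9, chr11:83020811-83021060 (reverse strand) for Slfn8, chr11:82951852-82952101 (forward strand) for Slfn5, chr11:83064862-83065111 (forward strand) for Slfn2 and chr11:83116570-83116819 (forward strand) for Slfn1. None of the 5 overlapped an annotated exon. The Slfn5 stretch lies within the annotated span of that gene (chr11:82951349-82964840), whose first base is upstream of the start site used here. Bases before that upstream start of Slfn5 were not searched.
Slfn9: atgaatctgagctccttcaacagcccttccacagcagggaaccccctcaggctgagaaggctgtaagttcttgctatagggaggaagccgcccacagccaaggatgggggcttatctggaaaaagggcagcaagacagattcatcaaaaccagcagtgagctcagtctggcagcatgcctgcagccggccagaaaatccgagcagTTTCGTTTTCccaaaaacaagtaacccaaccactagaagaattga
Slfn8: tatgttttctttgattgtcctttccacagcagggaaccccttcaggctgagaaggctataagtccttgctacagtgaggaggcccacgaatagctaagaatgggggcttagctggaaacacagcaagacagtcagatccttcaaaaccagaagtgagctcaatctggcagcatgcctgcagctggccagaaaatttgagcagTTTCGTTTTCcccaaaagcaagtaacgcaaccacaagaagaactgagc
Slfn5: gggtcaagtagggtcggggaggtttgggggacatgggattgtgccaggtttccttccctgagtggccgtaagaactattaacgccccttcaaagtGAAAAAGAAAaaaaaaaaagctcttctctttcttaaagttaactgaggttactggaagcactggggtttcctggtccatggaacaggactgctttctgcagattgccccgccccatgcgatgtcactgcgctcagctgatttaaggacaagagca
Slfn2: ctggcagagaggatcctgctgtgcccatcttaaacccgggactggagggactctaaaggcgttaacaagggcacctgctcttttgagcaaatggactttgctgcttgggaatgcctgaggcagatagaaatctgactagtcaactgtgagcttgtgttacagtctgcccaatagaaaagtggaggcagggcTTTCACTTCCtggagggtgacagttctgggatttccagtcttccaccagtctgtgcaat
Slfn1: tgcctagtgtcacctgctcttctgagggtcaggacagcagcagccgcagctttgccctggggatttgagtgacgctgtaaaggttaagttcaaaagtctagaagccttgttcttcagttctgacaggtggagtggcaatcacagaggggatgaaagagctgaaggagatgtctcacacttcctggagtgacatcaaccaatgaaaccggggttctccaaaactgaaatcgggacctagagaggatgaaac

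The Slfn9 and Slfn8 promoters held the same match, TTTCGTTTTC, the reverse complement of GAAAACGAAA, at bases -45 to -36 of Slfn9 and -48 to -39 of Slfn8. The table holds a second, downstream start site of Slfn8, from which the same match lies at bases -136 to -127 and whose upstream 250 bases overlap 88 exonic bases of Slfn8; it is not printed. Over 277 aligned bases of the 300-base windows of these neighbours, 238 were identical (85.9%). Slfn5 held its ISRE core on the forward strand at bases -155 to -146, next to a run of A bases. Slfn2 had no ISRE core and held the ETS-IRF element at bases -59 to -50. Slfn1, Slfn3 and Slfn4 held neither of these motifs. No member held the IFNγ-activated site (GAS, TTC and GAA with 3 bases of any kind between). Among 32851 promoter windows of the same length, 3.44% held the ISRE core, 2.72% the ETS-IRF element and 8.3% the GAS. The ISRE core and the ETS-IRF element can overlap, since the GAAA that ends the ETS-IRF element can begin an ISRE core. A match describes letters, not bound protein.

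Libraries held 20957384 to 26144478 counts in CD8+ T cells, against 32848432 to 38573550 in NK cells, and 12893 to 14042 genes had a count in the former against 17224 to 17373 in the latter. Depth thus moved with cell type, and its part in the results cannot be told apart from it. The biological coefficient of variation was 1.43 among CD8+ T cells and 0.855 among NK cells. Tyk2, the targeted gene, had 105, 919 and 554 counts in CD8+ T cells, against 3864, 4245 and 3207 in NK cells; counts over all exons do not show whether an exon is deleted, and a wild type level was not analysed here. The labelled cell types showed their markers. Summed CPM (counts scaled to a common library size) of 9 CD8+ T cell markers were 8990 to 10300 in CD8+ T cells against 452 to 642 in NK cells, where Cd8a had at most 22 counts and Cd8b1 had 0. Those of 8 NK cell markers were 172 to 278 against 52400 to 65700, and Ncr1 had 0 counts in CD8+ T cells. Of 6 B cell markers, 4 were above 3 counts in some CD8+ T cell library and the list summed to 311, 165 and 32.5 CPM in libraries 1 to 3 (NK cells 8.52 to 63.2). Pax5 had 0 counts there. The called B cell marker, Cd22, had 1, 1 and 0 counts in CD8+ T cells and was higher in NK cells, with 345, 364 and 266 (edgeR adjusted p = 0.024). Their part in the results was not tested. Of 9 myeloid markers, 5 had 0 counts in all 6 libraries, and the list summed to at most 0.0849 CPM in CD8+ T cells and to 0.666 to 16.9 CPM in NK cells. Erythroid markers summed to at most 4.0 CPM in each library.

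**Figure D1:**
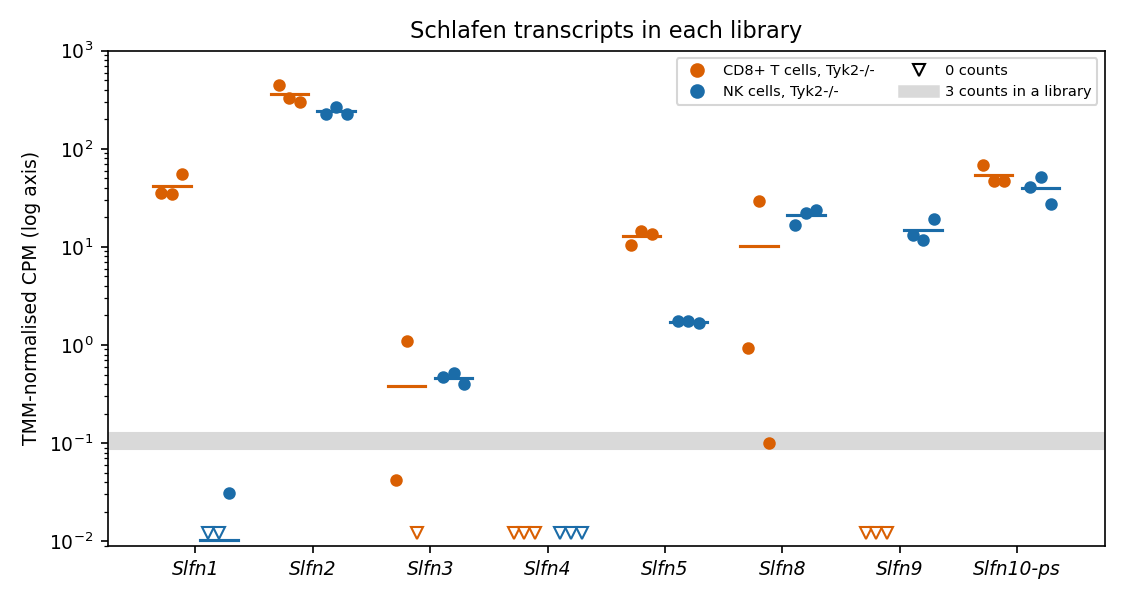
Level of each Schlafen gene in each library, as TMM-normalised CPM on a log axis, with a bar at the mean of 3 libraries. Open triangles stand for 0 counts, and the grey band is the level of 3 counts. Slfn1 stood at 34.3 to 55.0 CPM in CD8+ T cells and at or near 0 in NK cells, Slfn9 had 0 counts in CD8+ T cells, and Slfn8 spread over 0.1 to 29.4 CPM in CD8+ T cells.

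Levels are given as CPM after TMM scaling, with SD over n = 3 libraries. A gene was called when the adjusted p of edgeR's quasi-likelihood test over all genes was below 0.05 and the absolute log2 fold change was at least 1. Of the 7 members, 6 passed the filter on low counts, and 2 were called, Slfn1 as lower and Slfn9 as higher in NK cells than in CD8+ T cells. Over all genes 1567 of 14062 were called (11.1%), of which 858 favoured NK cells (6.1%) and 709 favoured CD8+ T cells (5.04%). Slfn1 and Slfn9 passed the filter through the cell type in which they are high, so the count of members is a description and was not tested against that background. In 4 of 7 members the libraries of both cell types did not overlap, Slfn1, Slfn2 and Slfn5 on the side of CD8+ T cells, Slfn9 on that of NK cells, beside 41.6% of all tested genes (16.1% with CD8+ T cells on top, 25.5% with NK cells). The median log2 fold change, NK over CD8+ T cells, was -0.15 over the members that passed, also with Slfn9 set at its bound, and 0.1 over all tested genes.

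The short group held both the most abundant member and the one with the lowest adjusted p. Slfn2, which maintains quiescence and survival of resting T cells, had 10586, 7816 and 9024 counts in CD8+ T cells, against 6722, 9299 and 7254 in NK cells. Its level was 361.0 ± 77.2 CPM (SD, n = 3) in CD8+ T cells, against 240.0 ± 25.1 CPM (SD, n = 3) in NK cells. The lowest CD8+ T cell library, at 302 CPM, lay above the highest NK cell library, at 269 CPM. The log2 fold change, NK over CD8+ T cells, was -0.58 (SE 0.21) and did not pass the test (edgeR adjusted p = 0.12). The ratio of means was 1.5, and no library of the 6 was under 226 CPM.

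Slfn1, the founding member, whose forced expression stops thymocytes and fibroblasts from dividing, had 834, 809 and 1643 counts in CD8+ T cells. In NK cells it had 0, 0 and 1 count. All CD8+ T cell libraries were high, at 34.3 to 55.0 CPM (mean 41.5 ± 11.7, SD, n = 3), and all NK cell libraries were below the level of 3 counts. The edgeR log2 fold change was -11.46 (SE 1.28, adjusted p = 0.0035), a fitted value that depends on the prior count. From the summed counts, 3286 against 1, the ratio of CD8+ T cells to NK cells was 4109, with an exact interval of 737 to 162344 at 95% that covers counting error only. Slfn1 was called in each of the 6 fits that left out a library (adjusted p 0.0074 to 0.025). In these bulk samples, fewer cells with a transcript and less transcript per cell cannot be told apart.

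**Figure D2:**
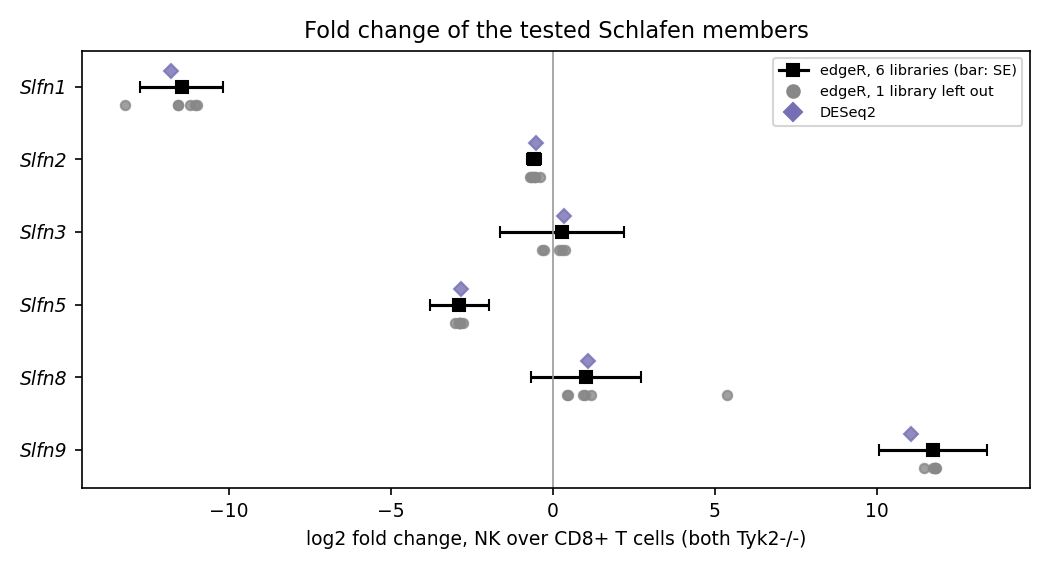
Log2 fold change, NK relative to CD8+ T cells, for the 6 members tested. Squares with bars are the edgeR estimate with its standard error over 6 libraries, grey circles are fits with 1 library left out, and diamonds are DESeq2. Slfn1, Slfn2, Slfn5 and Slfn9 kept their side of 0 in each fit shown, whereas Slfn8 moved from 1.04 to 5.37 without CD8+ T cell library 2 and Slfn3 fell on either side of 0.

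The intermediate group was near the limit of detection. Slfn3, a gene of the same block as Slfn4, had 1, 26 and 0 counts in CD8+ T cells, against 14, 18 and 13 in NK cells. Its 45 counts in NK cells were spread evenly over the libraries (0.404 to 0.522 CPM), whereas 26 of its 27 counts in CD8+ T cells were in library 2. The log2 fold change was 0.29 (SE 1.92, edgeR adjusted p = 0.94), and it turned to -0.26 and -0.32 without CD8+ T cell libraries 1 and 3. Slfn4, known from activated macrophages and myeloid cells, had 0 counts in all 6 libraries, which allows a level of up to 0.0869 to 0.127 CPM (3 counts per library, counting error only).

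The long group differed among its members. Slfn5, a nuclear member and an ISG, had 249, 345 and 401 counts in CD8+ T cells, against 52, 61 and 54 in NK cells. The level was 12.9 ± 2.11 CPM (SD, n = 3) in CD8+ T cells, against 1.73 ± 0.0468 CPM (SD, n = 3) in NK cells. The CD8+ T cell libraries were all higher, with a ratio of means of 7.43. The edgeR log2 fold change of -2.89 (SE 0.91) did not pass the test (adjusted p = 0.084, and 0.073 to 0.25 with a library left out), whereas DESeq2 called it (-2.83, adjusted p = 7.2e-05), beside 25.4% of all genes called by DESeq2 (10.9% higher in CD8+ T cells, 14.6% in the other direction). The antisense gene Slfn5os shares 559 exonic bases with Slfn5. It had 0 counts in all 6 libraries, and the sources used here do not say whether strand was used in the counting.

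Slfn9 was absent from the counts of CD8+ T cells, with 0 in each library, and had 395, 406 and 625 counts in NK cells. The NK cell level was 14.8 ± 4.06 CPM (SD, n = 3), at least 117-fold higher than 3 counts in the shallowest CD8+ T cell library (0.127 CPM). The fitted log2 fold change was 11.74 (SE 1.66, edgeR adjusted p = 0.019), and it depends on the prior count. The call was lost without any of the 3 NK cell libraries (adjusted p = 0.11, 0.099 and 0.12) and stayed without any of the CD8+ T cell libraries. DESeq2 called it as well (adjusted p = 4.7e-11). Without 1 NK cell library, the calls over all genes also dropped, to 475 to 485.

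Slfn8, the neighbour with the closely similar promoter shown above, had 498, 765 and 770 counts in NK cells. In CD8+ T cells it had 22, 694 and 3 counts. The NK cell libraries stood close together at 21.0 ± 3.74 CPM (SD, n = 3), and CD8+ T cell library 2, at 29.4 CPM, was above all of them, while libraries 1 and 3 were at 0.931 and 0.1 CPM. The cell types therefore overlapped, and the log2 fold change of 1.04 (SE 1.7) did not pass the test (edgeR adjusted p = 0.73). Without CD8+ T cell library 2 it was 5.37 (adjusted p = 0.057). In that library Slfn9 had 0 counts beside the 694 of Slfn8, whereas in NK cells the level per kb of exon of Slfn8 was 1.85, 2.76 and 1.81 times that of Slfn9. A library that stood high alone was common in these CD8+ T cells. Of all tested genes, 2115 (15.0%) had a highest CD8+ T cell library at least 10 times the next, 928 of them with library 2 highest, against 676 (4.81%) in NK cells, a measure chosen after the values were seen. Slfn8 was the only member tested past that ratio, at 28.7 times.

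**Figure D3:**
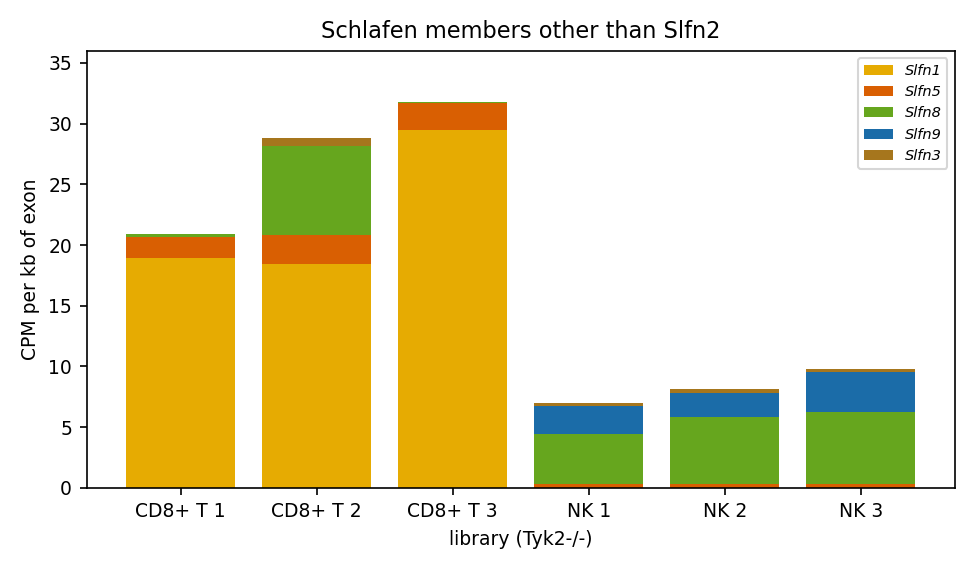
Normalised CPM per kb of exon of the members other than Slfn2, stacked for each library, with Slfn4 at 0 throughout. Slfn1 made up most of each CD8+ T cell bar (18.4 to 29.5 CPM per kb), and Slfn8 with Slfn9 most of each NK cell bar, while CD8+ T cell library 2 also held 7.34 CPM per kb of Slfn8.

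Within a cell type, the members differed in how much their libraries spread. The ratio of highest to lowest library, on CPM + 0.1, was 1.6 for Slfn1, 1.48 for Slfn2 and 1.39 for Slfn5 in CD8+ T cells. It was 12.0 for Slfn3 and 147 for Slfn8. These 2 members were at a ratio of at least 4, as were 45.2% of all tested genes. With CPM + 1, or without CD8+ T cell library 2, only 1 member was. The lowest CD8+ T cell library of Slfn3 had 0 counts, so its ratio depends on the added 0.1. In NK cells the ratio was 1.05 to 1.65 for the 5 members other than Slfn1 and Slfn4, and 24.3% of all tested genes reached 4. Slfn1 in NK cells and Slfn9 in CD8+ T cells, at or near 0 counts, could not reach a high ratio and were left out.

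Levels of the 7 members were compared with one another per kb of exon. In CD8+ T cells the order of the mean level was Slfn2 (217.0 ± 46.4 CPM per kb, SD, n = 3), Slfn1 (22.3 ± 6.26), Slfn8 (2.53 ± 4.17), Slfn5 (2.13 ± 0.349) and Slfn3 (0.21 ± 0.344), with Slfn4 and Slfn9 at 0. The means of Slfn8 and Slfn5 did not differ beyond their spread. Slfn8 was the higher of them in library 2 only (7.34 against 2.43 CPM per kb). Slfn5 was higher in libraries 1 and 3 (1.75 against 0.232 and 2.22 against 0.025). Slfn8 was above Slfn3 in each library (0.232 against 0.0233, 7.34 against 0.607 and 0.025 against 0.0 CPM per kb). In library 3 this rested on 3 counts against 0. In NK cells the order was Slfn2 (145.0 ± 15.1 CPM per kb, SD, n = 3), Slfn8 (5.23 ± 0.933), Slfn9 (2.52 ± 0.69), Slfn5 (0.287 ± 0.00775), Slfn3 (0.256 ± 0.0324) and Slfn1 (0.00556 ± 0.00963), with Slfn4 at 0. The means of Slfn5 and Slfn3 lay within their spread there, though Slfn5 was above Slfn3 in each library (0.29 against 0.26, 0.293 against 0.287 and 0.278 against 0.223). The lowest library of Slfn8 (4.18) lay above the highest of Slfn9 (3.3).

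Slfn2 thus dominated the family in both cell types. Its share of the summed CPM per kb of the 7 members was 88.4% ± 3.94 (SD, n = 3) in CD8+ T cells, against 94.5% ± 1.1 (SD, n = 3) in NK cells. The remainder was mostly Slfn1 in CD8+ T cells (9.48% ± 3.85). In NK cells it was mostly Slfn8 (3.43% ± 0.611) and Slfn9 (1.68% ± 0.554), which as shares of counts, not divided by length, were 7.52% and 5.39%. The summed level was 290, 228 and 213 CPM per kb in CD8+ T cells, against 143, 170 and 145 in NK cells, so each CD8+ T cell library was above each NK cell library. The smallest two-sided p that an exact permutation test of 3 against 3 libraries allows is 0.1. For the CPM of single members that test gave 0.1 for Slfn1, Slfn2, Slfn5 and Slfn9, 0.4 for Slfn8 and 1.0 for Slfn3.

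**Figure D4:**
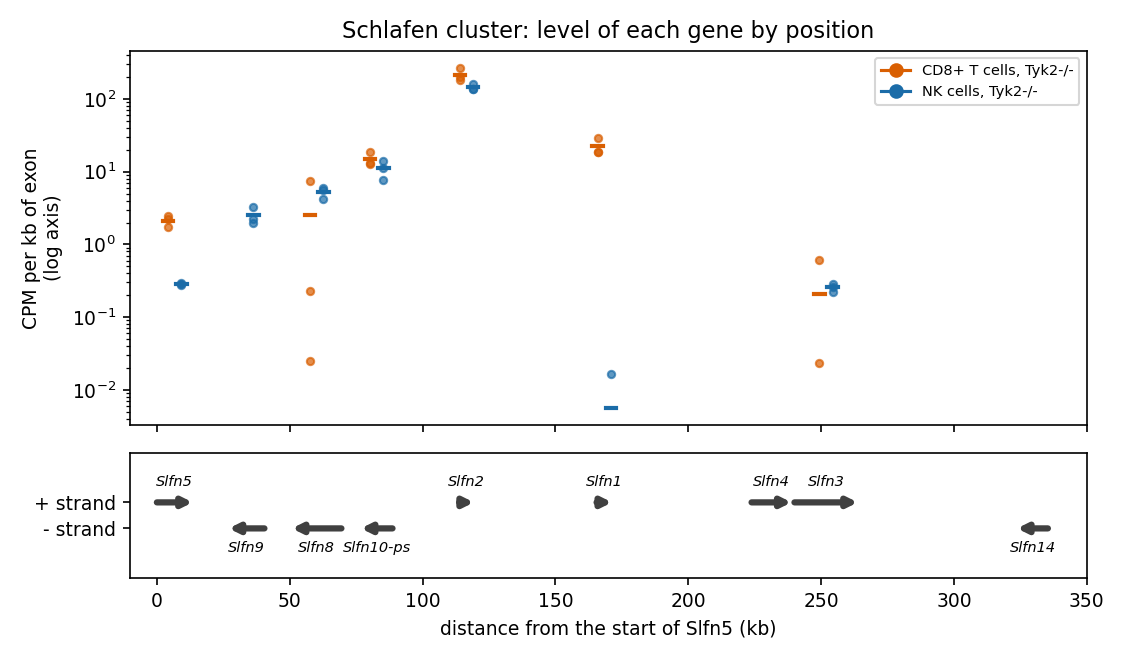
Level of each gene of the Schlafen cluster (upper panel, CPM per kb of exon, log axis, points for libraries above 0 and bars for the mean of 3) by distance from the start of Slfn5 in kb, with the strand of each gene below. Slfn2 was highest in both cell types, Slfn8 and Slfn10-ps had counts in both, Slfn9 had none in CD8+ T cells, Slfn1 had 1 count in NK cells, and Slfn4 and Slfn14 had 0 counts in both.

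Other genes of the family were counted too. Slfn10-ps had 1602, 1118 and 1398 counts in CD8+ T cells, against 1223, 1773 and 892 in NK cells. At 54.0 ± 11.9 and 40.1 ± 11.9 CPM (SD, n = 3 each) the cell types overlapped, with a log2 fold change of -0.43 (SE 0.4, edgeR adjusted p = 0.51). The pseudogene was detected in every library, at 7.66 to 18.7 CPM per kb. Slfn14, which cuts RNA in the erythroid and platelet lineages, and Slfnl1, a distant relative on chromosome 4, had 0 counts in all 6 libraries.

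The deposited counts leave out reads that align to several places, so transcripts were cut into 50-base windows to find those a member shares with another gene. Slfn1 shared 0.606% and Slfn2 4.27% of its windows. Slfn8 shared 15.0%, with 423 windows also in Slfn10-ps and 389 in Slfn9, and Slfn9 shared 11.7%. Slfn3 shared 23.7% and Slfn4 11.3%, most often with one another. Slfn5 shared 11.4%, with 467 windows also in Slfn5os, and Slfn10-ps 19.7%. Most windows of each member were thus its own among transcripts; sharing with the rest of the genome was not computed.

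Genes whose pattern over the 6 libraries was most like that of a member were found by the root mean square difference (RMS) of log2(CPM + 0.1) after centring each gene, among 10934 candidates. Nearest to Slfn1 were the ribosomal protein gene Rpl5 (RMS 0.22) and Cd5 (0.32), an inhibitory receptor of T cells. Rpl5 had 30889, 40357 and 51958 counts in CD8+ T cells, against 137, 135 and 150 in NK cells. Cd5 had 1458, 760 and 2304 counts in CD8+ T cells, against 0, 0 and 2 in NK cells. Why the ribosomal gene was so much lower in NK cells, and whether this bears on Slfn1, was not tested. Slfn2 was nearest to Uqcrfs1 (0.05) and Rnps1 (0.07). Among the genes nearest to Slfn5 was the ribosomal protein gene Rps26 (0.12). It had 17815, 30431 and 30997 counts in CD8+ T cells, against 3994, 4417 and 4115 in NK cells. Slfn9 was nearest to Enpp5 (0.11) and Apobr (0.14), both with 0 counts in all CD8+ T cell libraries. Slfn8 had no match as close. Its nearest genes, Ppp2r2d and Nup155 (both 0.37), also had most of their CD8+ T cell counts in library 2 (511 and 720). Those of Slfn3 were Gm17334 (0.27) and Qk (0.29).

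Since many Schlafen genes are ISG, the other genes of the type I IFN pathway and a list of ISG were read from the same fit. Of 12 pathway genes tested, 4 were called, 2 in each direction, beside 11.1% of all tested genes (6.1% higher in NK cells and 5.04% in the other direction). The median log2 fold change was 0.57, beside 0.1 over all tested genes. The 12 include Tyk2, the gene targeted in both groups, which also enters this median. Tyk2 was not among the 4 called (2.51, SE 0.75, edgeR adjusted p = 0.075). The receptor chain Ifnar2 (1.89, SE 0.23, edgeR adjusted p = 0.0045) and the kinase Jak1 (1.39, SE 0.2, adjusted p = 0.01) were higher in NK cells. Irf9 (-1.99, SE 0.47, edgeR adjusted p = 0.043), whose product is the DNA-binding part of the complex at the ISRE, was higher in CD8+ T cells. The calls favouring CD8+ T cells fell to 1 without CD8+ T cell library 1 or 3 or NK cell library 2, and to 0 without NK cell library 1 or 3, where those favouring NK cells fell to 1.

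Of 20 ISG, 11 passed the filter, with a median of -0.95, and 2 were called, beside 11.1% of all tested genes. Both passed the filter through the cell type in which they are high. The RNA sensor gene Ifih1 had 0 counts in CD8+ T cells, against 252, 83 and 181 in NK cells (edgeR adjusted p = 0.046). Oas3, a synthase of the messenger that activates RNase L, had 805, 8 and 797 counts in CD8+ T cells, against 0, 1 and 2 in NK cells (edgeR adjusted p = 0.046). Both calls were lost without CD8+ T cell library 1 or any NK cell library. That of Oas3 was also lost without CD8+ T cell library 3, and that of Ifih1 without the filter on low counts. Ifit2, of the family that binds viral RNA, had 2, 399 and 2 counts in CD8+ T cells, with library 2 high as for Slfn8, and 161, 75 and 278 in NK cells.

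Because Slfn2 is known for T cell quiescence, 10 other genes of that state were listed as well. All passed the filter, with a median of -0.55, and 4 were called, 1 with NK cells and 3 with CD8+ T cells on top, beside 11.1% of all tested genes (6.1% and 5.04% in that order). S1pr1, the receptor for exit from lymphoid tissue, had a log2 fold change of 1.67 (SE 0.23, edgeR adjusted p = 0.0074). The antiproliferative gene Btg1 (-2.48, SE 0.22, edgeR adjusted p = 0.0012) and Il7r, the receptor for the survival factor IL-7 (-1.71, SE 0.22, adjusted p = 0.0061), were higher in CD8+ T cells. The remaining call was Foxo1 (-1.85, edgeR adjusted p = 0.036), a transcription factor of naive T cells. The calls with CD8+ T cells on top fell from 3 to 2 without CD8+ T cell library 1 or 2 or any NK cell library.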

How the data were processed

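RNA-seq of sorted splenic CD8+ T cells and NK cells from Tyk2-/- mice (3 libraries each) was analysed. The authors trimmed reads with Trimmomatic 0.32, aligned them with STAR 2.7.1 to mm10 and deposited, for each gene, whole-number counts of the exonic reads that aligned to 1 place, without normalisation. Of 104 columns of values, 6 were used and 98 were not, among them 3 columns named as wild type homeostatic CD8+ T cells, because they stand against 2 labelled samples. Of 54232 gene IDs, 54079 matched a symbol in GENCODE M21 (GRCm38).

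The test was edgeR's (4.0.16, R 4.3.3) quasi-likelihood test with TMM scaling and robust estimation, run on the 14062 genes whose normalised count averaged 10 or more, with Benjamini-Hochberg adjustment over them. Calls needed an adjusted p-value below 0.05 together with a log2 fold change of 1 or more in size. The scripts were tested on simulated data that varied far less between libraries than these data do. That test checks the code and does not show how the fit performs at the variation seen here. Alternatives were RLE scaling, DESeq2 1.42.0, no filter, each library left out, CPM + 1 in place of CPM + 0.1, and 2 other length settings for the shares, of which the unshared windows were chosen after seeing the data. Per-kb levels used the union of exons of the basic annotation. Python 3.11.15, pandas 2.3.3, numpy 2.4.6, scipy 1.17.1 and Biopython 1.88 were used for the rest. Promoters came from a RefSeq table that held 7 of the 7 members.

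The members and lists were chosen with earlier results of these data known. Named genes were the members, Slfn10-ps, Slfn14, Slfnl1, Tyk2, up to 2 called genes per list and direction, defining markers and the 2 nearest genes per member; Foxo1, Ifit2 and Slfn5os were named after their values were seen. Some genes that this rule names are not reported here. The sources do not say whether pools shared litters, so p-values measure the spread between these samples. Molecular identifiers were not used, so floors cover counting error only.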

Additional observations from a re-analysis of the deposited data

How the results depend on the processing

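Slfn1 was called under each alternative run, and Slfn2 under none. Slfn8 was called in none of the fits that tested it, and DESeq2 gave it no adjusted p. Leaving out a library gave 475 to 1876 calls over all genes (235 to 1170 favouring NK cells, 240 to 724 favouring CD8+ T cells), 1 to 2 members called (0 to 1 favouring NK cells, 1 favouring CD8+ T cells) and 4 to 6 members without overlap, the 6 without CD8+ T cell library 2. Those 6 include Slfn3. The share of all genes without overlap is given for all 6 libraries only (41.6%), and fewer libraries separate more easily, so the 6 is a description. Leaving out a library gave 1 to 5 calls in the type I IFN pathway (1 to 3 and 0 to 2 in the same order), 0 to 2 among ISG (0 to 1 in each direction) and 3 to 4 in the quiescence list (1 to 2 and 2 to 3). The pathway calls favouring NK cells included the targeted gene Tyk2 without CD8+ T cell library 1 or 2 (edgeR adjusted p = 0.045 and 0.04). Members at a ratio of at least 4 were 1 to 2 in CD8+ T cells, against 0 in NK cells, where Slfn1 could not reach it. Shares were 7.3% to 11.0% (Slfn1) and 86.2% to 90.1% (Slfn2) in CD8+ T cells, and 94.2% to 95.2% (Slfn2), 3.09% to 3.68% (Slfn8) and 1.38% to 1.93% (Slfn9) in NK cells. Slfn3 ranged from -0.32 to 0.38 over 5 fits and turned to -0.26 and -0.32, and the cause was not tested. Without CD8+ T cell library 2, which held most of its CD8+ T cell counts, Slfn3 did not pass the filter and has no value.

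DESeq2 called 3537 genes, 2027 favouring NK cells and 1510 favouring CD8+ T cells, and 2 members higher in CD8+ T cells (Slfn1 and Slfn5). It called 4 pathway genes higher in NK cells, 6 in all, 2 ISG higher in CD8+ T cells, 3 in all, and 2 quiescence genes higher in NK cells. The targeted gene Tyk2 was among the 4 pathway genes (DESeq2 adjusted p = 0.0024). Without the filter, 1 ISG was called and 0 were higher in NK cells. With CPM + 1, 1 member was at a ratio of at least 4 in CD8+ T cells. As shares of counts without length, Slfn2 made up 84.2% in CD8+ T cells, against 86.3% in NK cells, Slfn8 7.52% and Slfn9 5.39% in NK cells. With unshared windows as length, a setting added after seeing the data, Slfn2 stood at 88.6% and 94.1%. RLE scaling moved the median fold change of all genes by 0.059 and turned no member. No paired analysis was possible because replicate numbers are not given by the columns used, nor shared by the cell types in their labels. With 3 libraries per cell type, pooled spleens and a variation of 1.43 among CD8+ T cells, small differences were not detectable, and levels under 0.0869 to 0.127 CPM cannot be told from 0.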
